A study of Mus musculus with 6 samples.

Results

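Complement genes were followed in mouse retinal cells after optic nerve crush (ONC), with and without overexpression of *Ezh2*. The genes were 9 named components and receptors, *C1qa*, *C1qb*, *C1qc*, *C1ra*, *C1s1*, *C3*, *C4b*, *C3ar1* and *C5ar1*, chosen by name from the 55573 genes counted. Mice of the C57BL/6J strain received AAV2-*GFP* (control) or AAV2-*Ezh2* in the vitreous, and the optic nerve was crushed 2 weeks later. AAV2 is an adeno-associated virus used to deliver genes to retinal neurons, and *Ezh2* codes for the enzyme within PRC2, a Polycomb complex that places repressive methyl marks on histone H3. Both groups were injured, so neither shows the uninjured retina. At 3 days after ONC, live cells carrying CD90.2, the product of *Thy1*, were sorted from dissociated retinas of both groups to enrich retinal ganglion cells (RGCs), and total RNA was sequenced. There were 3 libraries per group. AAV2 also reaches retinal cells other than RGCs, and the sort selects a surface protein that T cells carry as well, so the libraries can hold several cell types. All 9 genes passed the filter on low counts.

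Complement is a cascade of secreted proteins that tags cells and synapses for removal. The classical pathway starts when C1q, built from the chains A, B and C, binds a target and activates the proteases C1r and C1s, which cleave C4. The cascade then converges on C3, whose fragments coat the target, and the small fragments released from C3 and C5 signal through C3aR and C5aR1 on myeloid cells. In the retina and brain, microglia are the known main source of C1q, astrocytes and other glia express C4 and C3, and complement-tagged synapses are cleared by microglia.

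The genes fall into clusters on the mouse genome (GRCm38). *C1qb* (chr4:136880129-136886187), *C1qc* (chr4:136889804-136893065) and *C1qa* (chr4:136895917-136898803) lie side by side within 18.7 kb on the minus strand of chromosome 4, each with 3 exon blocks. *C1ra* (chr6:124512405-124523443, plus strand) and *C1s1* (chr6:124530345-124542359, minus strand) lie beside their near-identical copies *C1rb* and *C1s2* within 123.7 kb of chromosome 6. *C4b* (chr17:34728380-34743882, minus strand) lies within 95.1 kb with its copy *C4a*. *C3* (chr17:57203970-57228136), *C3ar1* (chr6:122847138-122856161) and *C5ar1* (chr7:16246743-16259540) are all on the minus strand. The copies could exchange reads: of the 50-base windows of the longest transcript, 35.2% of those of *C4b* occurred in *C4a*, 48.0% of those of *C1ra* in *C1rb* and 24.3% of those of *C1s1* in *C1s2*. The C1q chains shared 0 such windows with each other. The exons of *C1s1* also overlap those of an antisense gene, *Gm16567*, over 576 bases, and whether the authors counted by strand is not given in the sources used here.

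Promoter windows of 250 bases before the start, from RefSeq (GRCm38.p6), were read for 7 of the 9 genes. The letters GAGGAA and AGGAAG, which overlap each other and hold the GGAA core that ETS-family factors such as the myeloid factor PU.1 read, were searched on both strands after the windows had been seen. Matches numbered 3 in *C1qc*, 3 in *C5ar1*, 2 in *C1qb*, 1 in each of the windows of *C1s1*, and 0 in *C1ra*, *C3* and *C3ar1*. Of all 32851 promoter windows of this length, 39.2% held either motif and 16.7% held 2 or more matches. The windows of *C1qb* (chr4:136886201-136886450, minus strand), of *C3ar1* (chr6:122856158-122856407, minus strand) and of *C3* (chr17:57228137-57228386, minus strand) are shown 5′ to 3′ with matches in capitals, as a C1q chain, the receptor that was called below, and the central component.
C1qb: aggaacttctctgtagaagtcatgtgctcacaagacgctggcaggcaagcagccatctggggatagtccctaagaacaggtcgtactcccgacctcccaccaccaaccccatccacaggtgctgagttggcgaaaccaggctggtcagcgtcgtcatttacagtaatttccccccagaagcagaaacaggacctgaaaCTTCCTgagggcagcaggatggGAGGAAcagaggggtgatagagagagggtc
C3ar1: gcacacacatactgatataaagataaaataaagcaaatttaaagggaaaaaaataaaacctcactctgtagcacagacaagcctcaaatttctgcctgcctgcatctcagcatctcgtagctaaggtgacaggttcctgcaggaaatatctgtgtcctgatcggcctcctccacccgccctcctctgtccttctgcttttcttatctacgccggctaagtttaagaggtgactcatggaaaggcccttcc
C3: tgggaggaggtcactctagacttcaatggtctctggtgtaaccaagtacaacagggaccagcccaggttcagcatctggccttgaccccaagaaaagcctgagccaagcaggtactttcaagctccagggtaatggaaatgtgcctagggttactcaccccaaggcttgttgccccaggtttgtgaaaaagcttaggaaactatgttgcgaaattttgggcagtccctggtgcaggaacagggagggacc
A match is a string of letters in these windows, and *C3ar1* and *C5ar1*, both described below as higher after *Ezh2* overexpression, differed in it.

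The libraries held 30569933 to 35971192 counts, and 3 counts corresponded to 0.0834 to 0.0981 CPM (counts relative to each library's total). As a check of the labels, *Ezh2* was at 28.8, 34.6 and 33.0 CPM in the GFP libraries and at 78.0, 65.3 and 104.8 CPM in the Ezh2 libraries, in the order of their numbers. Ezh2 replicate 3 stood apart: its log2 CPM correlated with the other Ezh2 libraries at 0.971 and 0.972 across genes, against 0.988 between those libraries. The study left out 1 Ezh2 library, inferred to be this one from its heatmap columns. The main comparison therefore used 5 libraries, and the results for the 9 genes are also given with all 6. The labelled cell type was checked against a list of 10 RGC markers, which summed to 136 to 139 CPM in the GFP libraries and to 153 to 168 CPM in the Ezh2 libraries. *Thy1*, the gene of the sorted antigen, had 87.2 to 114 CPM, *Rbpms* 16.4 to 20.8, *Nefl* 9.42 to 15.4, *Isl1* 5.98 to 11.6 and *Slc17a6* 4.09 to 8.17 CPM. *Pou4f2*, a defining RGC transcription factor, had at most 0.0932 CPM in any library. In comparison, *Glul*, the glutamine synthetase of Müller glia, had 5446 to 9900 CPM. RGC markers were thus present at low levels beside abundant glial RNA, and the libraries are called sorted retinal cells here. In such bulk libraries, fewer cells of a type and less RNA per cell cannot be told apart.

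Of the complement genes, the receptor *C3ar1* rose after *Ezh2* overexpression, by 1.84-fold in 5 libraries. By adjusted p alone, the C1q chains and *C5ar1* were higher by 1.23- to 1.44-fold in those libraries, and *C4b* was lower, at 0.827 times its control level. *C1ra*, *C1s1* and *C3* did not pass the test. A call required a fold change above 1.5 together with an adjusted p under 0.05 (edgeR quasi-likelihood test, Benjamini-Hochberg over all genes tested). By this rule 1 of the 9 genes, *C3ar1*, was called, against 3.8% of the 20241 genes tested in 5 libraries. With 6 libraries it was again *C3ar1*, against 2.52% of 19732 genes. By adjusted p alone, 5 of the 9 were higher and 1 was lower in 5 libraries, where the shares of all genes were 10.1% and 7.68%. With 6 libraries 1 was higher and 1 lower by adjusted p alone, and the shares of all genes were 3.08% and 2.7%. The median log2 fold change of the 9 genes was 0.29 in 5 libraries and 0.18 in 6, beside −0.0078 and 0.0083 over all genes tested. The Ezh2 and GFP libraries did not overlap for 6 of the 9 genes in 5 libraries (44.9% of all genes), and for 3 of the 9 in 6 libraries (34.2%).

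**Figure D1:**
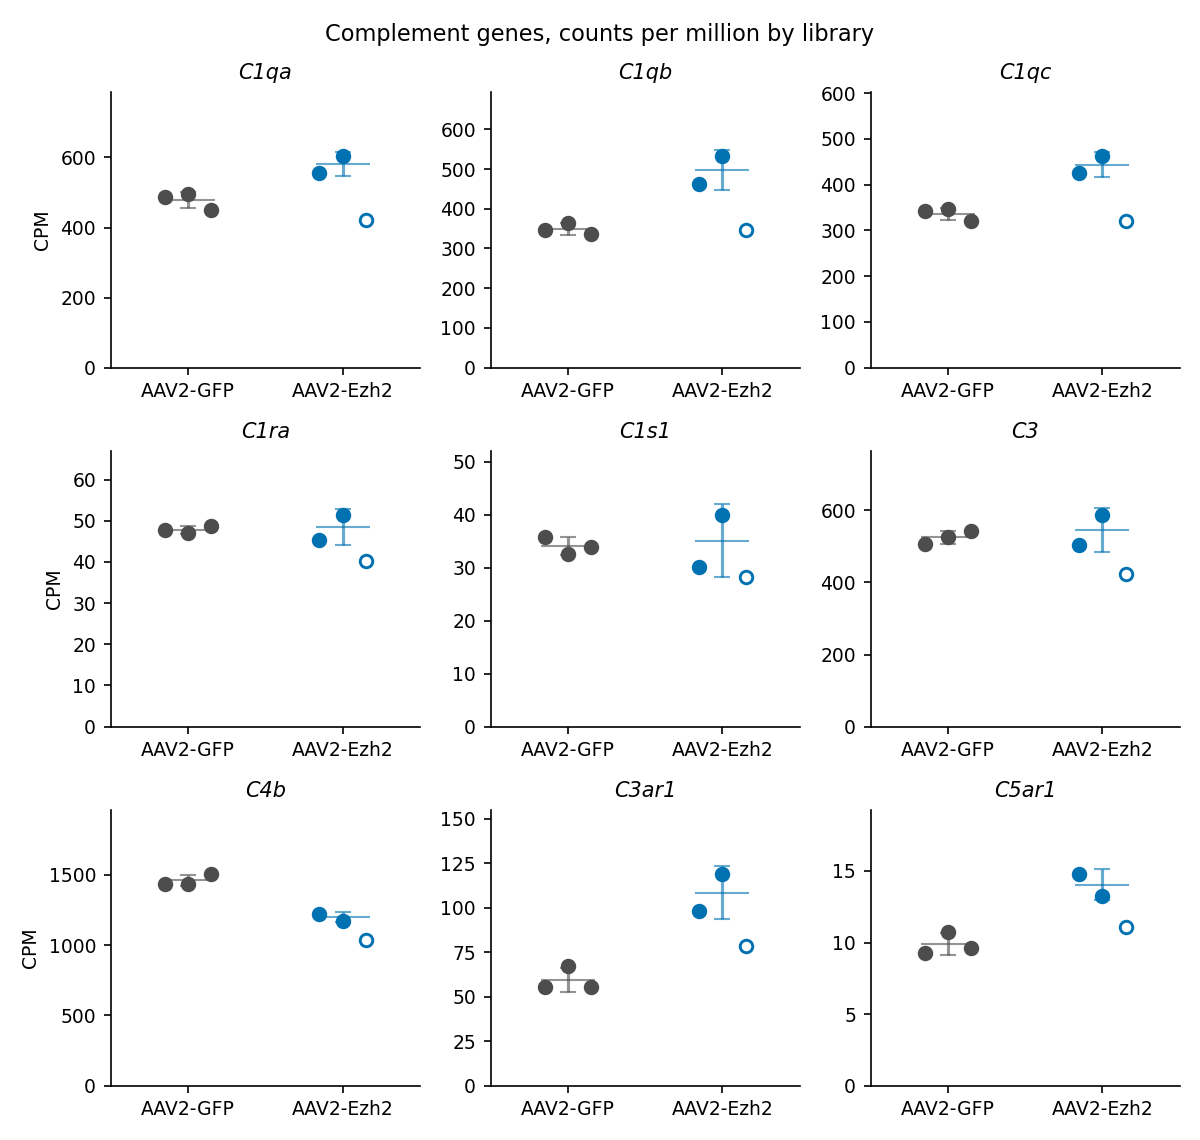
CPM of the 9 complement genes in each library. Filled points are GFP replicates 1 to 3 (grey) and Ezh2 replicates 1 and 2 (blue), the open point is Ezh2 replicate 3, and the bar with its whiskers is the mean ± SD of the filled points of a group. Every Ezh2 library lay above the GFP libraries for *C3ar1* and *C5ar1* and below them for *C4b*, whereas Ezh2 replicate 3 lay within or below the GFP range for the C1q chains.

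The C1q chains form the recognition unit of the classical pathway. *C1qa* reached 487, 495 and 451 CPM in the GFP libraries and 557, 605 and 423 CPM in the Ezh2 libraries. *C1qb* reached 348, 365 and 336 CPM in the GFP libraries and 463, 534 and 347 CPM in the Ezh2 libraries. *C1qc* reached 342, 346 and 321 CPM in the GFP libraries and 425, 464 and 319.8 CPM in the Ezh2 libraries. For all 3 chains Ezh2 replicates 1 and 2 lay above every GFP library, and Ezh2 replicate 3 lay at the GFP level for *C1qb* and below the lowest GFP library for *C1qa* and *C1qc*.

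In 5 libraries the log2 fold change was 0.52 ± 0.059 (SE) for *C1qb*, with an adjusted p of 4.61e-07. It was 0.41 ± 0.053 for *C1qc*, with an adjusted p of 9.14e-07, and 0.29 ± 0.054 for *C1qa*, with an adjusted p of 0.000165. None of these chains reached the fold threshold of 1.5, since the fold changes were 1.44, 1.33 and 1.23. With 6 libraries the estimates were 0.39 ± 0.13, 0.30 ± 0.11 and 0.18 ± 0.11, and the adjusted p values of 0.118, 0.150 and 0.333 missed the threshold. The difference in the C1q chains thus rests on leaving out Ezh2 replicate 3. In the 5-library fit without Ezh2 replicate 1, which held 1 Ezh2 library, the log2 fold change of *C1qb* was 0.64, a fold above 1.5.

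The chains moved together but not by the same amount. Over the 6 libraries, log2 CPM correlated at 0.992 between *C1qb* and *C1qc*, at 0.970 between *C1qa* and *C1qc* and at 0.944 between *C1qa* and *C1qb*, values that share the group difference and the libraries' scaling. Per length of exon, *C1qa* made up 48.5%, 48.1% and 47.7% of the summed C1q level in the GFP libraries and 45.3%, 44.3% and 45.6% in the Ezh2 libraries. *C1qb* made up 33.1%, 33.9% and 34.0% in the GFP libraries and from 35.8% to 37.4% in the Ezh2 libraries. The shares of *C1qa* and *C1qb* separated the groups in all 6 libraries, Ezh2 replicate 3 included, whereas *C1qc* stayed between 18.1% and 18.6%. The shares sum to 100% in each library, so the lower *C1qa* and the higher *C1qb* share are 1 observation. No test was run on these shares, and how often shares of other genes separate the groups was not computed.

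The proteases that C1q activates gave a different picture. *C1ra*, the mouse gene of C1r, reached 47.7, 46.9 and 48.8 CPM in the GFP libraries and 45.4, 51.5 and 40.3 CPM in the Ezh2 libraries. *C1s1*, the mouse gene of C1s, reached 35.8, 32.5 and 33.9 CPM in the GFP libraries and 30.2, 40.0 and 28.1 CPM in the Ezh2 libraries. For both genes Ezh2 replicate 2 was the highest library and Ezh2 replicate 3 the lowest, so the groups overlapped. The log2 fold change in 5 libraries was 0.031 ± 0.074 for *C1ra* (adjusted p = 0.828) and 0.057 ± 0.10 for *C1s1* (adjusted p = 0.763). With 6 libraries both estimates fell below 0, to −0.027 ± 0.092 for *C1ra* and −0.018 ± 0.13 for *C1s1*. The copies held few reads: *C1rb* had 0 counts in all 6 libraries, and *C1s2* ranged from 0.163 to 0.883 CPM. The test of *C1s2* gave an adjusted p of 0.981 in 5 libraries and 0.806 in 6.

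*C3*, on which all complement pathways converge, reached 506, 527 and 542 CPM in the GFP libraries. In Ezh2 replicates 1 to 3 it was at 503, 588 and 423 CPM. The Ezh2 libraries lay on both sides of the GFP range, and the log2 fold change was 0.068 ± 0.060 in 5 libraries (adjusted p = 0.504) and −0.021 ± 0.098 in 6 (adjusted p = 0.912).

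*C4b*, the mouse gene of C4, which C1s cleaves, was the member that was lower after *Ezh2* overexpression. It reached 1436, 1436 and 1509 CPM in the GFP libraries and 1223, 1174 and 1034 CPM in the Ezh2 libraries. Every Ezh2 library lay below every GFP library, and Ezh2 replicate 3 was the lowest. The log2 fold change was −0.27 ± 0.050 in 5 libraries (adjusted p = 0.000134) and −0.32 ± 0.067 in 6 libraries (adjusted p = 0.0289), below the fold threshold in both. In 6 libraries the adjusted p of *C4b* missed the threshold without GFP replicate 1, 2 or 3 (0.145, 0.142 and 0.186), without Ezh2 replicate 1 (0.0552) and in the fit with a replicate block (0.0919). Reads of *C4b* may be shared with *C4a*, which had 2.65, 3.03 and 2.34 CPM in the GFP libraries and 1.34, 1.91 and 2.06 CPM in the Ezh2 libraries. The log2 fold change of *C4a* was −0.70 ± 0.29 in 5 libraries (adjusted p = 0.0895) and −0.55 ± 0.26 in 6 (adjusted p = 0.233).

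Of the receptors, *C3ar1* showed the largest difference among the 9 genes, and *C5ar1* differed about as much as *C1qb*. *C3ar1* encodes the receptor for C3a, the small fragment released from C3, and is known from microglia and macrophages. It reached 55.4, 67.1 and 55.6 CPM in the GFP libraries and 97.9, 119 and 78.5 CPM in the Ezh2 libraries. The lowest Ezh2 library lay above the highest GFP library, and Ezh2 replicate 3 was the nearest to it. The log2 fold change was 0.88 ± 0.12 in 5 libraries, a fold of 1.84, with an adjusted p of 0.00457. With 6 libraries it was 0.77 ± 0.14, a fold of 1.70, with an adjusted p of 0.0220. Within the 6-library fit, the call was lost without GFP replicate 1 (adjusted p = 0.124), without GFP replicate 2 (0.0520), without GFP replicate 3 (0.138) and without Ezh2 replicate 1 (0.0558). The log2 fold change in these 4 fits lay between 0.72 and 0.86.

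*C5ar1* encodes the receptor for C5a, the small fragment released from C5, and is known from neutrophils, macrophages and microglia. It was at 9.26, 10.7 and 9.63 CPM in the GFP libraries and 14.8, 13.3 and 11.1 CPM in the Ezh2 libraries. The groups did not overlap, although Ezh2 replicate 3 lay close to GFP replicate 2. The log2 fold change was 0.52 ± 0.12 in 5 libraries, with an adjusted p of 0.00275 and a fold of 1.43, below the fold threshold. With 6 libraries it was 0.44 ± 0.14 and the adjusted p of 0.102 missed the threshold.

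**Figure D2:**
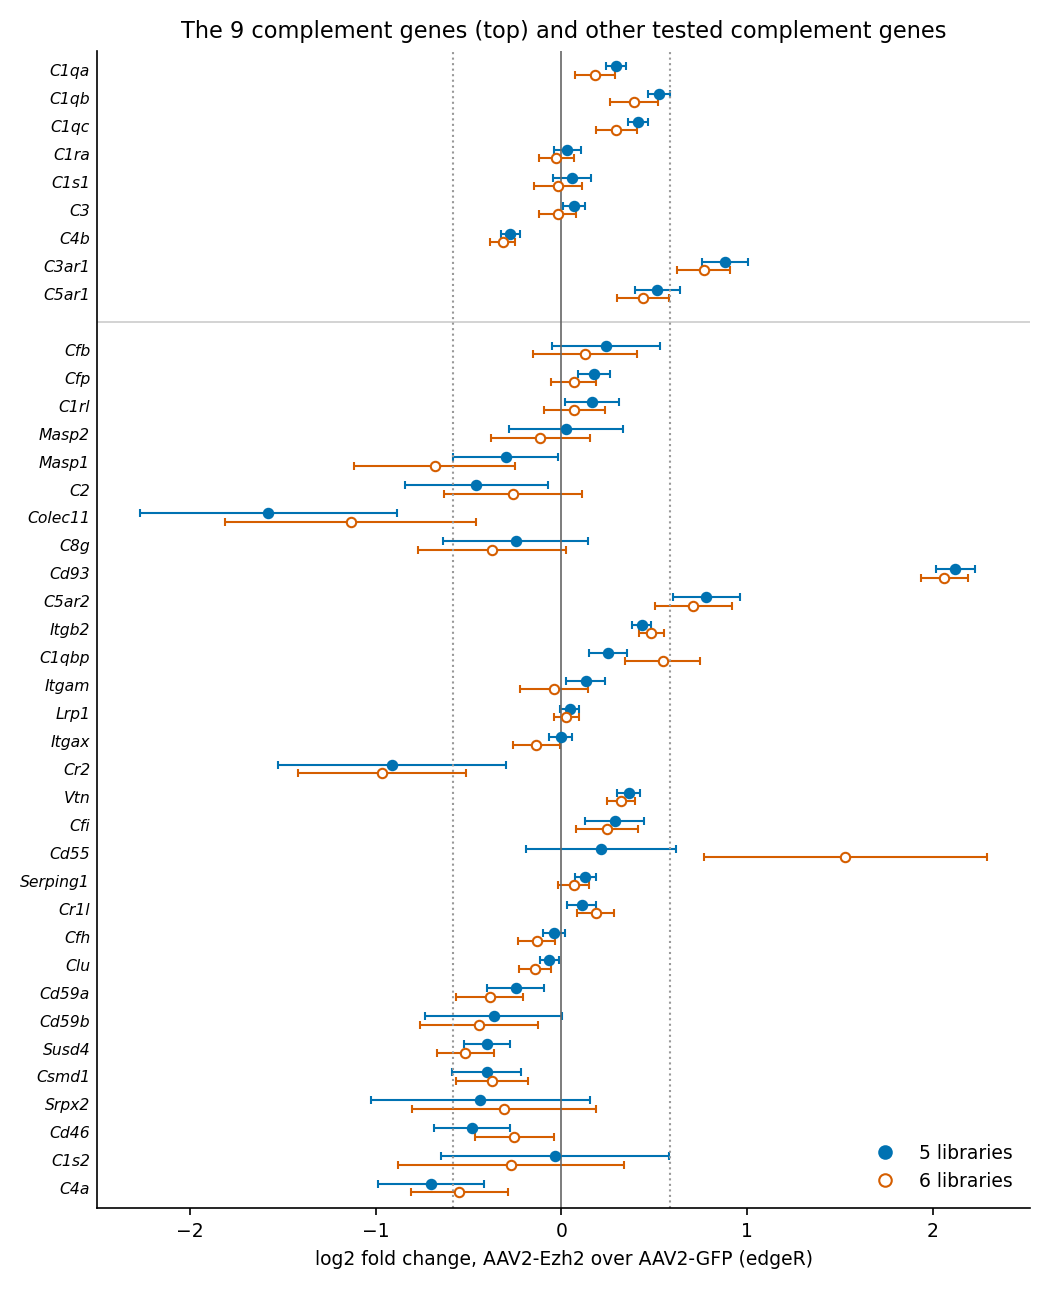
Log2 fold change of AAV2-*Ezh2* over AAV2-*GFP* from edgeR for the 9 complement genes (above the line) and for the other complement genes tested in both fits (below it). Points are estimates and bars are SE, filled for 5 libraries and open for 6, and dotted lines mark a fold change of 1.5. *Cd93* stands apart at 2.12, *C3ar1* and *C5ar2* lie beyond the upper dotted line and *Colec11* and *Cr2*, with wide errors, beyond the lower one in both fits, and *C1ra*, *C1s1* and *C3* lie near 0.

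The levels of the genes were compared per kb of exon, a scale on which genes of unequal length can be set side by side. In the GFP libraries the order was *C1qa* (459 ± 22.5 CPM per kb, SD, n = 3), *C1qb* (321 ± 13.6), *C4b* (256 ± 7.38), *C1qc* (174 ± 6.94), *C3* (102 ± 3.46), *C1ra* (16.0 ± 0.318), *C3ar1* (13.8 ± 1.55), *C1s1* (10.9 ± 0.515) and *C5ar1* (3.84 ± 0.300). No neighbours in this order overlapped over the 3 GFP libraries. In the 3 Ezh2 libraries *C1qa* and *C1qb* overlapped, as did *C4b* and *C1qc*. *C3ar1*, at 22.9 ± 4.71 CPM per kb (SD, n = 3), lay above *C1ra* at 15.3 ± 1.88. The C1q chains, *C4b* and *C3* were at 82.3 CPM per kb or more in every library, and the proteases and receptors at 27.7 or less.

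**Figure D3:**
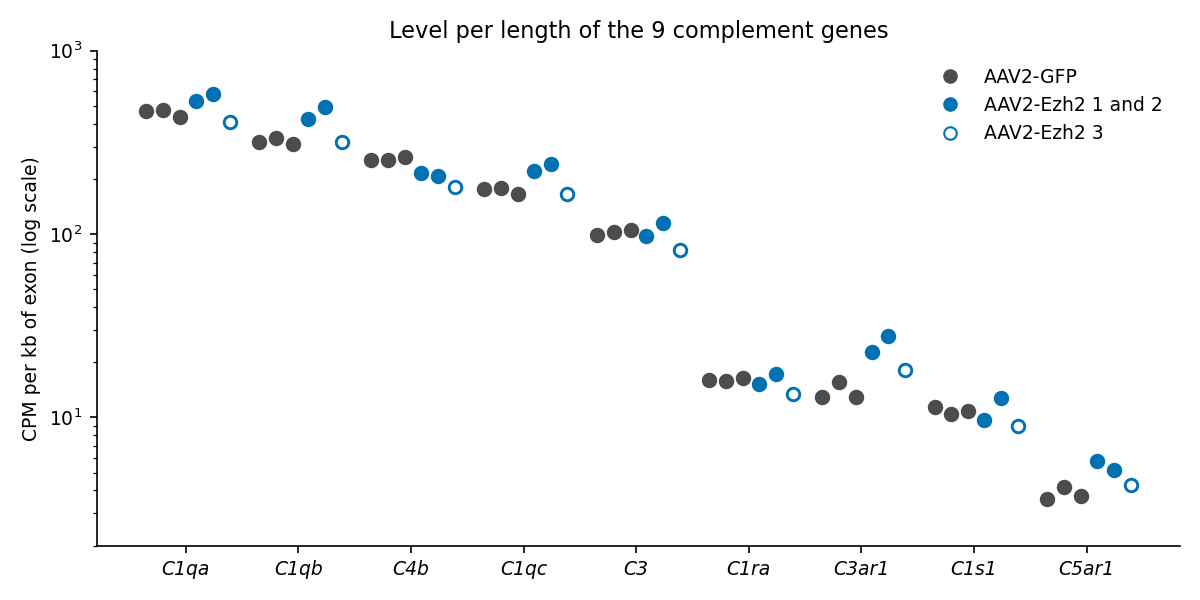
CPM per kb of exon of the 9 complement genes on a log axis, ordered by their mean in the GFP libraries. Points are libraries, grey for GFP, filled blue for Ezh2 replicates 1 and 2 and open for Ezh2 replicate 3. In the Ezh2 libraries *C3ar1* lies above *C1ra*, the reverse of their order in the GFP libraries.

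The rest of the complement system was read from a list of 50 other genes: copies of members, initiating factors, terminal components, receptors and inhibitors. Of these, 32 passed the filter on low counts in 5 libraries and 31 in 6, and 5 had 0 counts in every library. Called genes numbered 2 in 5 libraries, both higher, beside 3.8% of all genes, and 1 in 6 libraries, beside 2.52%. By adjusted p alone 4 were higher and 1 was lower in 5 libraries, beside 10.1% and 7.68% of all genes, and 3 were higher in 6, beside 3.08%. No list test was run on these counts, and they are not read as a result about the list. The median log2 fold change of the tested genes was −0.019 in 5 libraries and −0.13 in 6. No tested initiating factor (7 in both fits) or terminal component (2 in 5 libraries and 1 in 6) passed the adjusted p. At an unadjusted p under 0.05 there was 1 initiating factor in 5 libraries and 0 in 6, and 0 terminal components in either. All genes at that threshold numbered 5935 of 20241 tested in 5 libraries and 4834 of 19732 in 6. The list of terminal components had 2.88, 2.46 and 0.976 CPM in all in the GFP libraries and 3.14, 1.88 and 1.28 CPM in the Ezh2 libraries.

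The 5 genes past the adjusted p in 5 libraries were 3 receptors and 2 inhibitors. *Cd93*, first described as a C1q receptor and expressed by endothelial and myeloid cells, reached 21.5, 21.9 and 16.9 CPM in the GFP libraries and 79.8, 93.6 and 71.8 CPM in the Ezh2 libraries. The groups were far apart, Ezh2 replicate 3 included. Its log2 fold change was 2.12 ± 0.10 in 5 libraries (adjusted p = 2.84e-09) and 2.06 ± 0.13 in 6 (adjusted p = 0.000167). *C5ar2*, the other C5a receptor, reached 3.83, 6.38 and 5.47 CPM in the GFP libraries and 9.53, 8.31 and 7.17 CPM in the Ezh2 libraries. The groups did not overlap. It was called in 5 libraries at 0.78 ± 0.18 (adjusted p = 0.00224) and not in 6, at 0.71 ± 0.21 (adjusted p = 0.0829). *Itgb2*, the shared beta subunit of complement receptors 3 and 4, was higher by adjusted p alone, at 0.43 ± 0.050 (adjusted p = 1.84e-07) in 5 libraries and 0.48 ± 0.068 (adjusted p = 0.00593) in 6. Its highest library was Ezh2 replicate 3, at 247 CPM. The alpha subunits of these receptors did not pass in 5 libraries: *Itgam* was at 0.13 ± 0.10 (adjusted p = 0.444) and *Itgax* at −0.0037 ± 0.062 (adjusted p = 0.980). With 6 libraries they were at −0.041 and −0.14 (adjusted p = 0.909 and 0.526).

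Among the 17 genes in the list of inhibitors, 13 were tested and 2 passed the adjusted p in 5 libraries without reaching the fold threshold. *Vtn*, which encodes vitronectin, a blocker of the terminal complex, was higher at 0.36 ± 0.063 (adjusted p = 7.86e-05), and at 0.32 ± 0.077 (adjusted p = 0.0444) in 6 libraries. *Susd4*, which encodes a membrane inhibitor of complement, was lower at −0.40 ± 0.12 (adjusted p = 0.0224). With 6 libraries its estimate was −0.52 ± 0.15 and the adjusted p of 0.0830 missed the threshold. *Vtn* and *Susd4* thus lay on opposite sides of 0.

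Marker genes of the cell types that the sort could hold are given beside these results, as the sum of CPM over each list. The microglia list of 14 genes summed to 2809 to 2977 CPM in the GFP libraries and to 3075, 3229 and 2310.0 CPM in the Ezh2 libraries. Of its genes 3 were called higher and 1 lower in 5 libraries, and 2 higher and 1 lower in 6, beside 3.8% and 2.52% of all genes called. Those called higher in 5 libraries were *Fcrls*, *Trem2* and *Tyrobp*, at log2 fold changes of 1.70, 0.91 and 0.86. *Sall1* was called lower, at −0.63. By adjusted p alone 7 of the 14 were higher and 2 lower in 5 libraries, beside 10.1% and 7.68% of all genes. The defining genes *P2ry12* (23.5 to 30.7 CPM in GFP, 16.0 to 26.3 in Ezh2) and *Tmem119* (87.6 to 95.2 in GFP, 59.8 to 93.8 in Ezh2) did not pass the test in 5 libraries, with adjusted p values of 0.691 and 0.713, nor in 6, with 0.425 and 0.629. The list's most abundant gene, *Sparc*, is also expressed by other retinal cells. Without it the list summed to 1469.5 to 1625 CPM in the GFP libraries and to 1879.9, 1999 and 1346 CPM in the Ezh2 libraries. That sum was higher in Ezh2 replicates 1 and 2 and lower in Ezh2 replicate 3 than in the GFP libraries, as were *C1qa* and *C1qc*, whereas *C1qb* lay within the GFP range in Ezh2 replicate 3.

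The macrophage list moved further than any of the 9 complement genes. Its 12 genes summed to 560 to 629 CPM in the GFP libraries and to 1936, 2476 and 1677 CPM in the Ezh2 libraries, of which *Lyz2* held 1406, 1868 and 1223 CPM. Of 11 tested genes 8 were called higher in 5 libraries and 7 in 6, beside the same 3.8% and 2.52% of all genes. Of the defining genes, *Mrc1* was at 8.72 to 10.4 CPM in the GFP libraries and at 12.4 to 15.1 CPM in the Ezh2 libraries, and *Cd163* was at most 0.389 CPM in any library. In the list of monocyte and neutrophil genes 1 of 5 tested genes was called higher in either fit, beside those same shares. It was *Chil3*, at 0.293 to 0.632 CPM in the GFP libraries and 5.03 to 10.7 CPM in the Ezh2 libraries. By adjusted p alone 4 of the 5 were higher in 5 libraries and 1 in 6, beside 10.1% and 3.08% of all genes. The neutrophil genes *Ly6g* and *Retnlg* had at most 0.0316 and 0 CPM. The part of macrophage genes in the rise of *C3ar1* and in the levels of *C5ar1* and the C1q chains was not tested.

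The sum of the Müller glia list moved the other way, with *C4b*. Its 10 genes summed to 22791 to 23602 CPM in the GFP libraries and to 17992, 18491 and 14709 CPM in the Ezh2 libraries, and 8 of the 10 were lower by adjusted p in 5 libraries and 5 in 6, beside 7.68% and 2.7% of all genes. *Rlbp1*, a defining gene, was at 1488 to 1535 CPM in the GFP libraries and at 956 to 1236 CPM in the Ezh2 libraries. *Glul*, the list's most abundant gene, was at 9540 to 9900 CPM in the GFP libraries and at 5446 to 6937 CPM in the Ezh2 libraries. *Vim* and *Sox9* lay above 0 in 5 libraries, at log2 fold changes of 0.13 and 0.11 (adjusted p = 0.0766 and 0.187). The astrocyte list summed to 1401 to 1483 CPM in the GFP libraries and to 1583 to 1945 CPM in the Ezh2 libraries. *Gfap*, an intermediate filament gene that astrocytes and injured Müller glia express, carried that difference, at 413 to 426 CPM in the GFP libraries and at 719 to 919 CPM in the Ezh2 libraries. Without it the list summed to 988 to 1057 CPM in the GFP libraries and to 864 to 1026 CPM in the Ezh2 libraries. The part of these glial genes in the level of *C4b* was not tested.

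The remaining marker lists are given in the same way, and the shares of all genes called were 3.8% in 5 libraries and 2.52% in 6. The T cell list of 12 genes summed to 535 to 572 CPM in the GFP libraries and to 736, 693 and 1233 CPM in the Ezh2 libraries. In either fit 2 of its genes were called higher. By adjusted p alone 11 were higher in 5 libraries and 3 in 6, beside 10.1% and 3.08% of all genes. The cone list of 8 genes summed to 28.8 to 29.0 CPM in the GFP libraries and to 66.7, 58.1 and 38.8 CPM in the Ezh2 libraries, with 8 called higher in 5 libraries and 2 in 6. The rod list of 8 genes summed to 401 to 471 CPM in the GFP libraries and to 713, 756 and 423 CPM in the Ezh2 libraries, with 3 called higher in 5 libraries and 0 in 6, where 3 had an unadjusted p under 0.05. The list of endothelial and mural genes summed to 2707 to 2859.5 CPM in the GFP libraries and to 2634, 2673 and 2114 CPM in the Ezh2 libraries, with 2 of 10 called higher in 5 libraries and 1 in 6. The list of B and plasma cell genes summed to 599 to 642 CPM in the GFP libraries and to 414 to 660.0 CPM in the Ezh2 libraries, with 0 of 8 called in either fit, and 3 genes in 5 libraries and 1 in 6 at an unadjusted p under 0.05. Of all genes tested, 5935 of 20241 in 5 libraries and 4834 of 19732 in 6 had an unadjusted p under 0.05. The part of these cells in the levels of the complement genes was not tested.

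**Figure D4:**
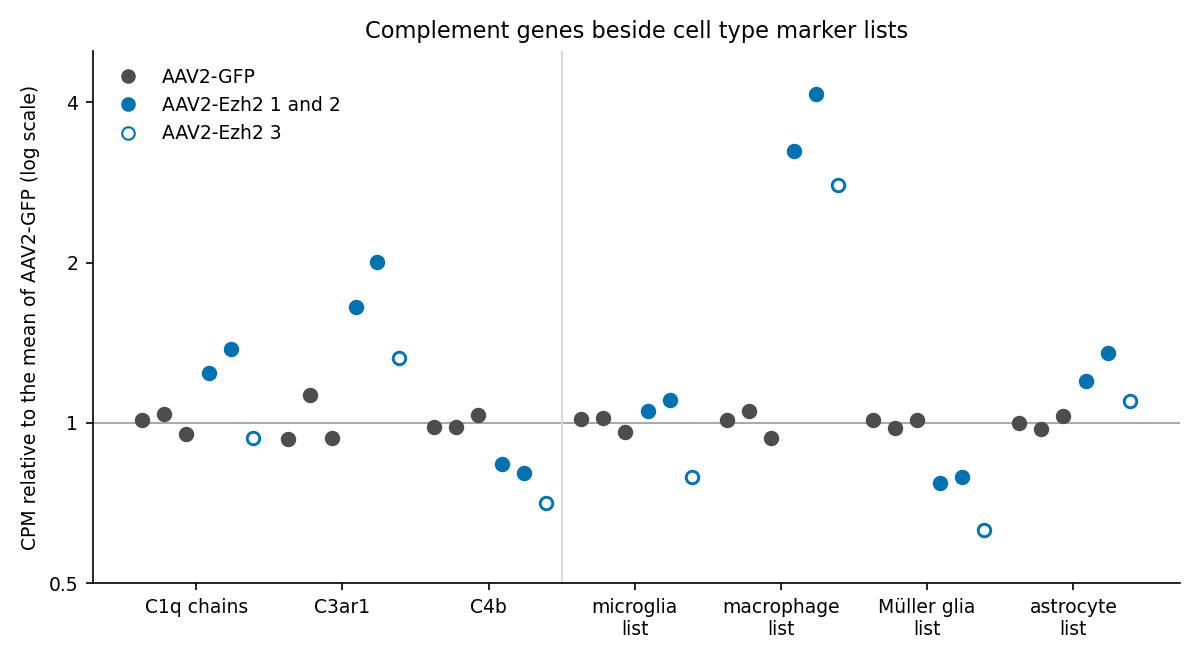
CPM of the summed C1q chains, *C3ar1* and *C4b* (left of the line) and summed CPM of 4 marker lists (right), each relative to its mean in the GFP libraries, on a log axis. Grey points are GFP libraries, filled blue points Ezh2 replicates 1 and 2, and the open point Ezh2 replicate 3. The macrophage list lies at more than 2 in every Ezh2 library, the Müller glia list and *C4b* lie below 1 in every Ezh2 library, and the open point is the lowest of the Ezh2 points in each column.

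As a description, each gene's count was divided by the summed count of the microglia list, which removes the scaling of a library. For *C3ar1* this ratio, times 100, was 1.86, 2.25 and 1.98 in the GFP libraries and 3.18, 3.69 and 3.40 in the Ezh2 libraries. Ezh2 replicate 3, low on the CPM scale, thus lay between the other Ezh2 libraries on this scale. The ratio was 1.69 times the GFP mean in Ezh2 replicates 1 and 2 and 1.67 times in Ezh2 replicate 3. For *C1qb* those values were 1.32 and 1.26, for *C1qc* 1.22 and 1.20, for *C1qa* 1.13 and 1.12, and for *C5ar1* 1.32 and 1.42. For these 5 genes all 3 Ezh2 libraries lay above all GFP libraries. The share of all genes that separate on this scale was not computed, so the count is not read as a result about the members. On the CPM scale 34.2% of all genes did not overlap in 6 libraries. The ratio of *C4b* was 0.760 and 0.894 times the GFP mean and did not overlap either, whereas those of *C1ra*, *C1s1* and *C3* overlapped between the groups.

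Whether a gene lay above or below its control level depended on the markers it was set against, which rescale all 9 genes of a library alike. Against the microglia list without *Sparc*, *C1qa* was at 0.979 times the GFP mean in Ezh2 replicates 1 and 2 and overlapped, whereas *C1qb* was at 1.15, *C1qc* at 1.06 and *C3ar1* at 1.47 times. Against the macrophage list all 9 genes were lower, from 0.226 times the GFP mean for *C4b* to 0.498 times for *C3ar1*. Against the microglia and macrophage lists together, *C3ar1* was the only one of the 9 above 1, at 1.20 times, and *C1qb* was at 0.935 times. *Lyz2* alone held 1406, 1868 and 1223 CPM of the macrophage sums of 1936, 2476 and 1677 CPM in the Ezh2 libraries. In the GFP libraries it held 329 to 379 of 560 to 629 CPM. Ratios without *Lyz2* were not computed, so the place of *C3ar1* as the only gene above 1 may rest on it. Against the Müller glia list *C4b* was at 1.05 times and overlapped, whereas *C3*, *C1s1* and *C1ra* were at 1.33, 1.32 and 1.29 times. Ratios to this list without its most abundant gene, *Glul*, were not computed.

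**Figure D5:**
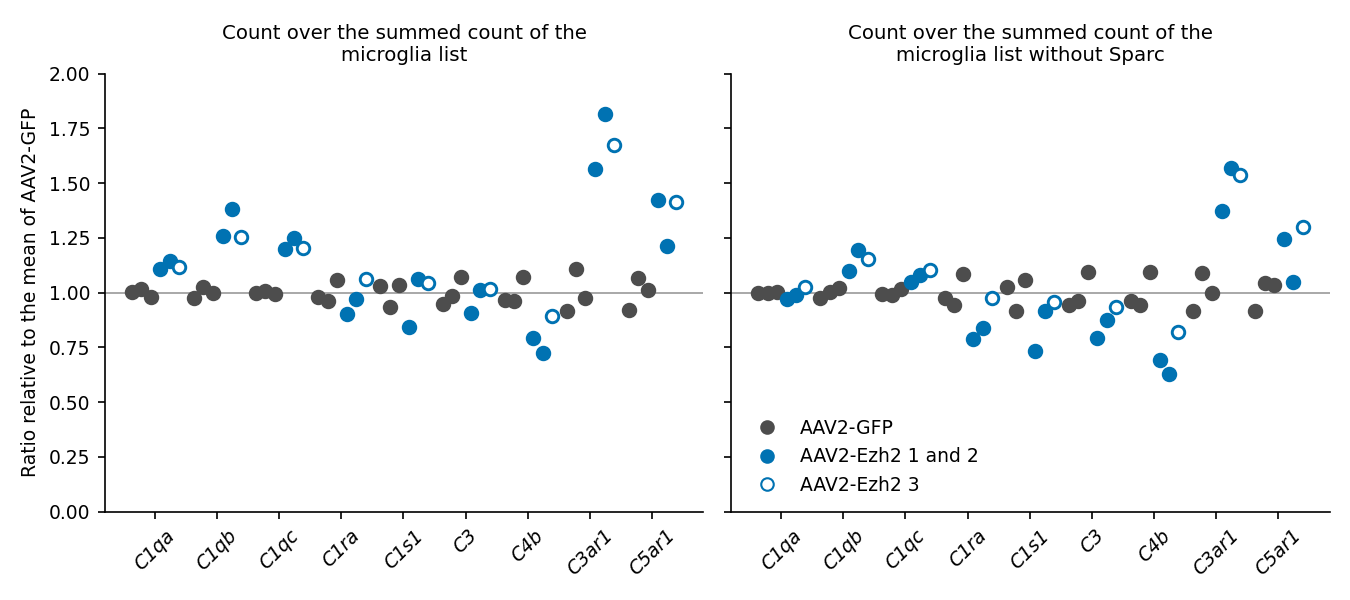
Count of each of the 9 complement genes over the summed count of the microglia list (left) and of that list without *Sparc* (right), relative to the mean of the GFP libraries. Grey points are GFP libraries, filled blue points Ezh2 replicates 1 and 2, and open points Ezh2 replicate 3. *C3ar1* lies highest in both panels, and *C1qa* lies above the GFP libraries in the left panel only.

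The genes whose levels followed the complement genes most closely were ranked by the Pearson correlation of log2 CPM over the 6 libraries, among genes with a mean count of at least 100. These values describe the libraries, which share the group difference and a low Ezh2 replicate 3. For the mean of the C1q chains, 93 of 13767 genes correlated above 0.95, led by *Tmem14c* (0.999), *Lgmn* (0.998), *Cd300lf* (0.994), *Adgre1* (0.991) and *Nupr1* (0.991). *Lgmn* encodes the lysosomal protease legumain, *Cd300lf* an inhibitory receptor of myeloid cells and *Adgre1* the macrophage and microglia marker F4/80. *C3ar1* and *C5ar1* correlated with the C1q mean at 0.898 and 0.826.

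For *C3*, 30 of 13769 genes correlated above 0.95. The leading ones were *Nat8f1* (0.992), *Psmg1* (0.990), *Pros1* (0.986), *Snrnp27* (0.986) and *Cryz* (0.982), and among the members *C1ra* was at 0.969 and *C1s1* at 0.834. *C3*, *C1ra* and *C1s1* had Ezh2 replicate 2 as their highest and Ezh2 replicate 3 as their lowest library. For *C4b*, 666 genes correlated above 0.95, led by *Oas1b* (0.999), *Rgs6* (0.998), *Nf1* (0.998), *Kcnj10* (0.998) and *Jade1* (0.997). *Kcnj10*, a potassium channel gene of Müller glia, is also in the Müller glia list. *C4b* correlated with *C3ar1* at −0.805 and with *C5ar1* at −0.738. Read by eye, with no clustering run, the 9 genes fell into 3 patterns over the libraries: the C1q chains with *C3ar1* and *C5ar1*, *C3* with *C1ra* and *C1s1*, and *C4b* by itself. The split was not sharp, since *C1qa* correlated with *C3* at 0.642 and with *C5ar1* at 0.724.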

How the data were processed

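RNA-Seq was analysed in 6 libraries of sorted retinal cells, 3 per group, and the 9 complement genes and all gene lists were chosen with earlier results of these data known. Per the labels, RNA was isolated with the PicoPure kit and libraries were made with the TruSeq Stranded Total RNA kit. The table deposited by the authors holds raw read counts per Ensembl gene, and the submitters' processing notes name STAR 2.7.0d and GRCm38. The counting program, strand setting and annotation release are not given in the sources used here. GENCODE M21 supplied symbols, coordinates and exon lengths, and 55480 of 55573 identifiers matched. All 6 columns were matched to samples by their labels.

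After removal of low genes by filterByExpr and TMM scaling, edgeR 4.0.16 (R 4.3.3) was used for the quasi-likelihood F test, with its robust option and group as the only term. The main fit held GFP replicates 1 to 3 and Ezh2 replicates 1 and 2, as in the study. Two-sided p values were corrected over all tested genes after Benjamini and Hochberg. The SE of a log2 fold change was taken from the F statistic. CPM used library totals. Nothing says that replicates came from separate animals, so p values measure the spread between libraries, which may be technical. The SE and SD likewise include the spread between libraries. The CPM value of 3 counts reflects counting alone, and reads carry no molecular identifiers. Named genes were the 9, their copies, other complement genes with an adjusted p under 0.05 in either fit, a few defining markers, and the 5 genes most correlated with the C1q mean, *C3* and *C4b* (log2 CPM, prior count 2). Other marker genes, *Colec11*, *Cr2*, *Itgam* and *Itgax* were named after their values were seen. The alternatives comprised all 6 libraries, leaving out each library, a replicate block, DESeq2 1.42.0, limma-voom (limma 3.58.1), other scaling, other filters, removal of the 10 most abundant genes, thinning to the smallest total, other thresholds and the fit without the robust option, the last chosen after seeing the data, as were the ratios to the Müller glia list and to the microglia list without *Sparc* and the astrocyte list without *Gfap*. The fit was tested on simulated data before use. Library numbers did not pair the samples.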

Additional observations from a re-analysis of the deposited data

Results flagged for a closer look

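In Ezh2 replicate 3, a library outside the 5 of the main comparison, 2 other complement genes lay at more than 1.5 times their level in every other library. That library stood apart across genes. The share of all genes beyond this limit in it was not computed, so the count is not read as a result about complement genes. *C1qbp*, which encodes a mitochondrial protein that can bind C1q, was at 29.3 CPM there, against at most 16.6 CPM in the GFP libraries and 18.9 CPM in the other Ezh2 libraries. *Cd55*, which encodes decay-accelerating factor, an inhibitor of the C3 convertases, was at 5.64 CPM there, against at most 1.14 and 1.18 CPM. Both genes were named for these values, no test was run on a single library, and the T cell list summed to 1233 CPM in that library, against 736 and 693 CPM in Ezh2 replicates 1 and 2 and 535 to 572 CPM in the GFP libraries.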

How the results depend on the processing

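Over 23 alternative fits, *C1qa*, *C1qb*, *C1qc*, *C4b*, *C3ar1* and *C5ar1* kept the sign of their log2 fold change, from 0.076 to 0.37 for *C1qa*, 0.25 to 0.64 for *C1qb*, 0.19 to 0.49 for *C1qc*, −0.35 to −0.25 for *C4b*, 0.61 to 1.03 for *C3ar1* and 0.36 to 0.58 for *C5ar1*. *C3ar1* was called in 19 of the 23, with adjusted p values up to 0.138. Genes called numbered 770 (511 higher, 259 lower) in 5 libraries and 498 in 6, 3605 by adjusted p alone, 324 at a fold change above 2, and 110 to 794 with each library left out. The lowest counts, 110, 187 and 126, came from 6 libraries without GFP replicate 1, 2 or 3, beside 416 and 423 without Ezh2 replicate 1 or 2. With upper-quartile scaling 458 were higher and 324 lower. Of the 9 members 1 was called, 6 by adjusted p alone and 0 at a fold change above 2. With a library left out and at least 2 Ezh2 libraries kept, 0 to 1 were called. The 5-library fits without Ezh2 replicate 1 or 2, which are among the 23, held 1 Ezh2 library. Their calls are left out of this range. Of the other complement genes 2 were called, 1 in 6 libraries, 5 by adjusted p alone, 1 at a fold change above 2, and 1 to 4 with each library left out, where the 4, without Ezh2 replicate 1 of 5 libraries, added *Csmd1* and *Colec11*. For 3 members the direction was not fixed. With all 6 libraries the log2 fold change was −0.027 for *C1ra*, −0.018 for *C1s1* and −0.021 for *C3*, with each library left out it ran from −0.11 to 0.13, −0.18 to 0.26 and −0.14 to 0.19, and with upper-quartile scaling *C1ra* was at −0.0051. *C1s2*, with few counts, was at 0.25 with limma-voom and ran from −0.69 to 0.62 with each library left out. Ezh2 replicate 3 was the lowest library for *C1ra*, *C1s1* and *C3*, and Ezh2 replicate 2 the highest. In 5 libraries without Ezh2 replicate 2 these members were also below 0, at −0.077, −0.18 and −0.064. The cause was not tested.

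Library numbers did not pair the samples: deviations from the group means correlated at −0.0051, −0.020 and −0.010 between same-numbered libraries. The replicate block gave 768 called genes in 5 libraries and 414 in 6. In the block fit of 6 libraries 1 other complement gene was called, and *C1ra*, *C1s1* and *C3* were at −0.031, −0.031 and −0.028. It changed no call of the 9 members. The filter on low counts left 5 of the 7 terminal components untested in 5 libraries, and low expression and limited depth were not told apart.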
